A study of Mus musculus with 6 samples.

Results

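Metallothioneins and zinc transporters were followed across 6 RNA sequencing libraries of mouse macrophages, as the 8 genes Mt1, Mt2, Mtf1, Slc30a1, Slc30a5, Slc30a7, Slc39a1 and Slc39a10, each matched by its symbol. All 8 were found once among the 16775 genes of the deposited tables, and all 8 were among the 11898 genes that reached 1 CPM, a count scaled to the library total (adjusted by TMM for the levels given below), in at least 1 library. The cells were C57BL/6 macrophages raised from bone marrow over 5 days in 10 ng/ml M-CSF, their growth and differentiation factor, and treatment lasted 24 hours. The treated groups received IL4 with fatostatin, IL4 with betulin, IL4 with 25-HC, IL4 with PF429424 or IL4 with 1,10-Phen, and the last group received IL4 alone. IL4, the cytokine of alternative activation, was thus in every group. The study asked about the sterol regulator SREBP2 in that activation, a factor whose processing both fatostatin and betulin are known to block. The targets of the other compounds are not described here, and they may include the same processing. The labels give neither the doses nor the number of animals, nor any property of a compound towards metals.

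Metallothioneins are small proteins rich in cysteine that bind zinc and copper in the cytosol and buffer free zinc. The transcription factor MTF1 senses zinc and binds metal response elements, through which it switches on Mt1, Mt2 and Slc30a1, and in mouse cells it is known to hold down Slc39a10. Transporters of the SLC30 family (ZnT) move zinc out of the cytosol, across the cell membrane or into organelles, and those of the SLC39 family (ZIP) move it in. In macrophages these genes are known to respond to zinc, to cadmium and other metals, and to oxidative stress and inflammatory signals.

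Each treatment had 1 library, so every value below compares libraries and not conditions. Replicate error is unknown, and no test was possible. Library totals lay between 20181396 and 21169667 estimated counts. Intervals are exact 95% counting intervals (Poisson for a level, Clopper-Pearson for a ratio) and leave out every other source of error. Reads without molecular identifiers are not independent molecules. In what follows, called means a ratio to the IL4 library of at least 2-fold, up or down, with an interval that excludes no change. All 8 macrophage markers examined, among them Adgre1, Csf1r and Cd68, were present in every library, with summed levels of 7122 to 11337 CPM in the compound libraries and 10633 CPM with IL4 alone. Lyz2 held 4520 CPM of that last sum. Single macrophage markers were called, with Mertk lower with 25-HC (0.478-fold), PF429424 (0.467-fold) and 1,10-Phen (0.141-fold), Adgre1 lower and Cd14 higher with 25-HC (0.417-fold and 2.79-fold), and Fcgr1 lower with 1,10-Phen (0.273-fold). The 5 lymphocyte markers summed to at most 1.66 CPM in any compound library, against 1.91 CPM with IL4 alone. In bulk RNA, fewer cells of a type and less RNA per cell cannot be told apart.

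The 2 metallothionein genes described here lie side by side on chromosome 8 of GRCm38, Mt2 (NCBI Gene 17750) at chr8:94172618-94173567 and Mt1 (NCBI Gene 17748) at chr8:94178883-94180327, with 5315 bases between them in the RefSeq annotation. The sequences printed here are the start site regions of these genes and of the zinc exporter gene Slc30a1, the 3 genes that were higher together, from the RefSeq promoter table (GRCm38.p6), 250 bases before the annotated start site and 30 from it. For Mt1 and for Slc30a1 the start site of this table lies inside the span of the gene. Capitals mark the core of the metal response element, searched as TGCACNC and TGCGCNC on both strands, so that a match on the opposite strand reads as its reverse complement. The windows stand at chr8:94178839-94179118, chr8:94172368-94172647 and chr1:191906531-191906810, all on the plus strand.
Mt1: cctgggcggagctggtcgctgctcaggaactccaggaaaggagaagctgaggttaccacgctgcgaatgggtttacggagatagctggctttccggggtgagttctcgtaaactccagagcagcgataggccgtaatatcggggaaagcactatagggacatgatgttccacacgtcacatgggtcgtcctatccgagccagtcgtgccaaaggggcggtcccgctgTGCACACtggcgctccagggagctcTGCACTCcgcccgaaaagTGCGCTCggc
Mt2: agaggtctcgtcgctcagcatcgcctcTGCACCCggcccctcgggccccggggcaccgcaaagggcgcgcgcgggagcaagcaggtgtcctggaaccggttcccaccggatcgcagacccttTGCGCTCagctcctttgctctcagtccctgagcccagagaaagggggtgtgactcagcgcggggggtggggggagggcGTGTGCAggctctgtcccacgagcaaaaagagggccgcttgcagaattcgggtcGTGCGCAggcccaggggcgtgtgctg
Slc30a1: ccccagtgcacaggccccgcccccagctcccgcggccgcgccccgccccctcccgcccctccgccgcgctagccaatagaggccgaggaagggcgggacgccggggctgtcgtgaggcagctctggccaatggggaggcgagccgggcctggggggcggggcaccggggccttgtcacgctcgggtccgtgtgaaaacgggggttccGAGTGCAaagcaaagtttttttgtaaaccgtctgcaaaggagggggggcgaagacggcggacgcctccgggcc

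Over the full 300-base windows (250 bases before the start site and 50 from it), Mt2 held 4 metal response element cores, Mt1 held 3 and Slc30a1 held 2. At least 4 cores were found in 0.517% of the 32851 windows of the promoter table, at least 3 in 1.97% and at least 2 in 7.11%. Counted from the start site, the 3 of Mt1 begin at bases -23, 3 and 21, the 4 of Mt2 at -223, -128, -50 and 5, and those of Slc30a1 at -43 and at 31, which is past the printed stretch. Slc30a5 held 1 core, and 25.7% of all windows held at least 1. The windows of Mtf1, Slc30a7, Slc39a1 and both annotated start sites of Slc39a10 held no core. The windows are rich in G and C, at 60.7% in Mt1, 67.7% in Mt2 and 73.0% in Slc30a1, and the share of all windows was not matched for this. The core of the hypoxia response element, searched as ACGTG on both strands, was found once in the Mt1 window and in neither the Mt2 nor the Slc30a1 window, against 19.6% of all windows. Slc30a5 held 3 hypoxia cores, 2 of them overlapping on opposite strands, and at least 3 were found in 1.73% of all windows. No hypoxia core overlapped a metal response element core in these windows. Annotations differ in where these genes start. GENCODE vM21 on the same assembly also places Mt1 transcript starts 122 and 152 bases downstream of the start site used here. Its Mt2 starts lie 46 and 242 bases downstream. No GENCODE start of Slc39a10 lies in either of its windows, so the lack of a core describes those windows only. In bases downstream, the nearest was at 32924 from 1 annotated start site and at -428 from the other. A match is a description of letters and not a bound site.

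**Figure D1:**
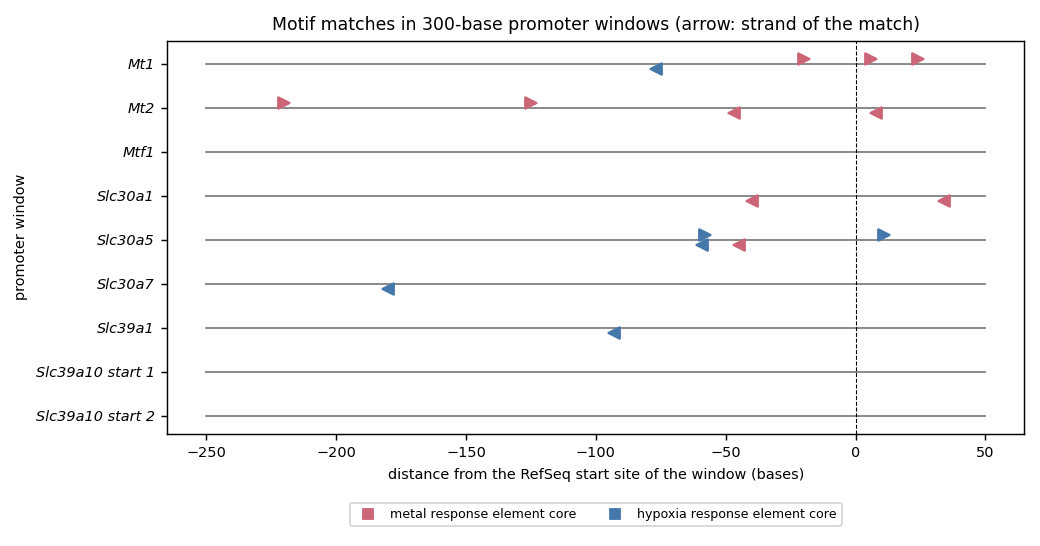
Matches of the metal response element core and of the hypoxia response element core in the 300-base promoter windows of the 8 genes (Slc39a10 has 2 annotated start sites), with the distance from the start site in bases on the horizontal axis and the strand as the direction of each arrow. Mt2 holds 4 metal response element cores, Mt1 holds 3, Slc30a1 holds 2 and Slc30a5 holds 1.

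Of the 8 genes, 3 were higher and 1 was lower in the betulin library than in the IL4 library, while 3 were higher and none lower in the 1,10-Phen library. The 3 higher genes were Mt1, Mt2 and Slc30a1 in both, and the lower gene with betulin was Slc39a10. With fatostatin and with PF429424, Mt2 alone was called, and it was higher in both. With 25-HC none of the 8 was called. Over all genes compared, 1.91% were called higher and 2.29% lower with betulin (4.19% in either direction), and 7.58% higher and 11.8% lower with 1,10-Phen (19.4%). The same shares were 0.874% higher and 1.06% lower with fatostatin (1.93%), 2.49% higher and 5.63% lower with PF429424 (8.12%), and 3.28% higher and 5.69% lower with 25-HC (8.97%). The 8 genes had a median log2 ratio of 0.06 with fatostatin, 0.09 with betulin, -0.05 with 25-HC, 0.10 with PF429424 and 0.69 with 1,10-Phen, where the median of all genes compared lay between -0.015 and 0.023. The 5 comparisons share the IL4 library, so a deviation of that library would enter all of them. With library totals in place of TMM, the called genes split into 641 higher and 1940 lower with 1,10-Phen, in place of 902 and 1406, and into 216 and 867 with PF429424, in place of 296 and 670.

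Mt1 had the higher RNA level of the 2 metallothionein genes in every library. Its level was 202 FPKM (fragments scaled to transcript length and library size) with fatostatin, 952 with betulin, 75.3 with 25-HC, 137 with PF429424 and 834 with 1,10-Phen, against 150 FPKM with IL4 alone. The betulin and 1,10-Phen libraries stood far above the other 4, and 25-HC gave the lowest level. In the order of scaled counts, betulin (483 CPM) and 1,10-Phen (479 CPM) were not separable by counting error. The log2 ratio between them was 0.01 (interval -0.03 to 0.05). PF429424 (73.0 CPM) and IL4 alone (72.7 CPM) were not separable either, while the other neighbours in the order differed beyond counting error. Both likenesses depend on TMM scaling. Scaled by library totals, the log2 ratio of Mt1 to the IL4 library was 2.66 with betulin, 2.48 with 1,10-Phen and -0.13 with PF429424. Against the IL4 library, Mt1 was 6.63-fold higher with betulin (interval 6.30 to 7.01; 10303 counts against 1562) and 6.58-fold higher with 1,10-Phen (6.24 to 6.95; 8943 counts). These were the 15th highest of 11898 ratios with betulin and the 128th with 1,10-Phen. The log2 ratio was 0.48 with fatostatin (interval 0.39 to 0.58), 0.00 with PF429424 and -0.96 with 25-HC (interval -1.08 to -0.84), the last just inside the 2-fold limit.

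Mt2, the second metallothionein of the cluster, was low with IL4 alone and had the widest range of the 8 genes. Its level was 17.0 FPKM with fatostatin, 311 with betulin, 3.58 with 25-HC, 11.2 with PF429424 and 273 with 1,10-Phen, against 3.94 FPKM with IL4 alone. Behind these stood 187, 3451, 40, 124 and 2997 counts in the same order of compounds, against 42 counts with IL4 alone (interval 30.3 to 56.8). Only 25-HC lay at the level of IL4 alone, with a log2 ratio of -0.10 (interval -0.76 to 0.56), and the other 4 compound libraries lay above it beyond counting error. The betulin and 1,10-Phen levels, 162 and 161 CPM, differed by a log2 ratio of 0.01 (interval -0.06 to 0.08). This too depends on TMM scaling. Scaled by library totals, the log2 ratio of Mt2 to the IL4 library was 6.24 with betulin and 6.05 with 1,10-Phen. Mt2 was 79.0-fold higher with betulin than with IL4 alone (interval 61.1 to 115) and 78.1-fold higher with 1,10-Phen (60.6 to 114), the 2nd and 4th highest of 11898 ratios. It was 4.34-fold higher with fatostatin (3.20 to 6.45), where its ratio ranked 10th, and 3.02-fold higher with PF429424 (2.18 to 4.54), where it ranked 93rd. Because all 5 folds rest on 42 counts of 1 library, they share its counting error. With the median of the 6 libraries in place of the IL4 library, Mt2 was at 0.26 with fatostatin and -0.26 with PF429424, neither called, and at 4.45 with betulin and 4.43 with 1,10-Phen. Of the 11898 genes compared, 11893 had a smaller range over the 6 libraries than Mt2.

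The 2 metallothioneins therefore did not keep a fixed proportion. Mt2 made up 24.6% of the summed FPKM of the pair with betulin and 24.7% with 1,10-Phen, and 7.79% with fatostatin, 7.54% with PF429424 and 4.54% with 25-HC, against 2.56% with IL4 alone. Mt1 FPKM exceeded that of Mt2 by 3.06-fold with betulin and 3.05-fold with 1,10-Phen, and by 38.1-fold with IL4 alone. Every deposited count of both genes was a whole number, whereas 30.5% to 32.0% of all values in a library were fractional. The counts thus show no reads divided between these similar transcripts, and whether each read was given to the right one was not tested. Together the pair held 645 CPM with betulin and 640 CPM with 1,10-Phen, against 74.7 CPM with IL4 alone. Mt1 ranked 49th of all 16775 genes by FPKM with betulin and 61st with 1,10-Phen, against 465th with IL4 alone, and Mt2 ranked 229th and 250th in those libraries, against 8676th with IL4 alone.

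**Figure D2:**
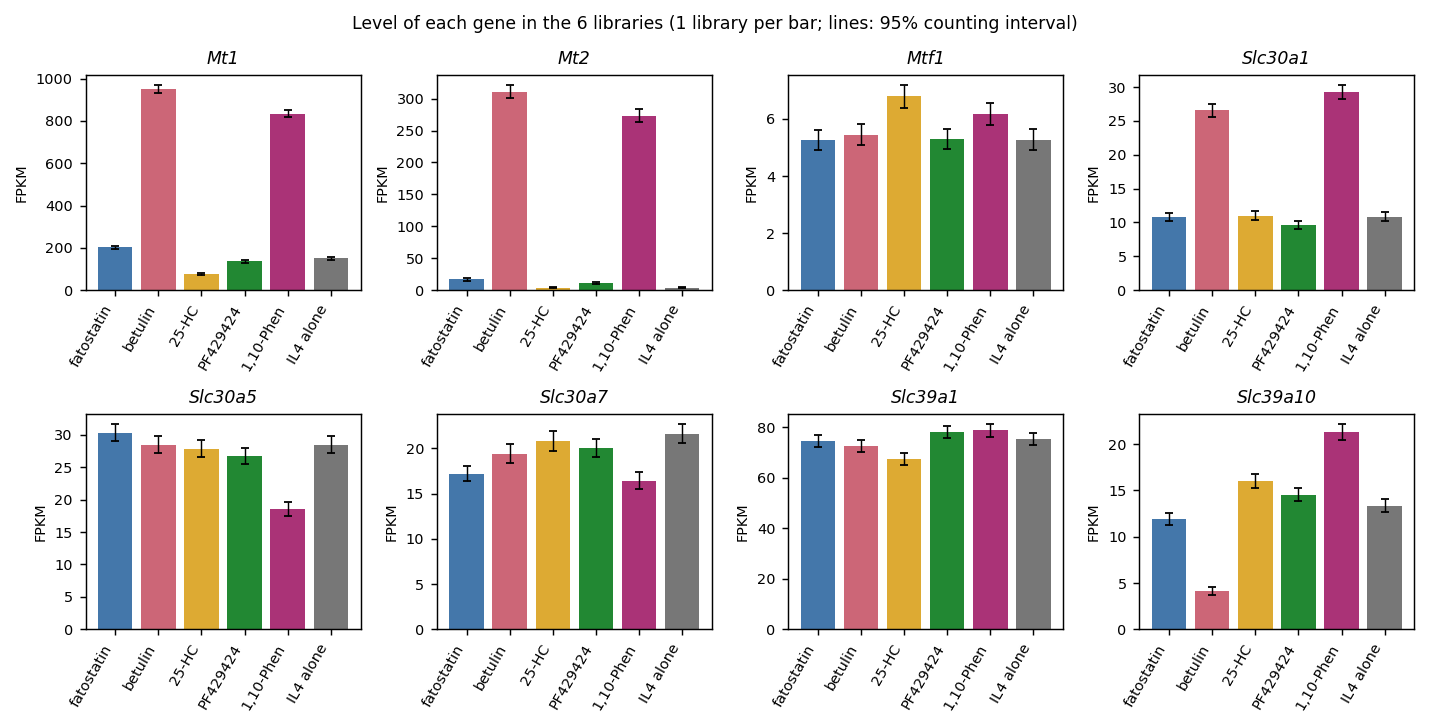
FPKM of each of the 8 genes in the 6 libraries, 1 library per bar, with lines for the 95% counting interval and a separate linear axis from 0 for each gene. Mt1, Mt2 and Slc30a1 are tallest with betulin and 1,10-Phen, Slc39a10 is lowest with betulin (4.13 FPKM) and highest with 1,10-Phen (21.25 FPKM), and the other 4 genes span at most 1.43-fold in scaled counts.

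Neighbours of the metallothionein genes on chromosome 8 did not share these differences. Nup93, a nuclear pore gene that is the next gene of the tables beyond Mt1, had log2 ratios between -0.36 and 0.13 in the 5 comparisons. Bbs2, a ciliary gene on the other side of the cluster, lay between -0.70 and 0.03, and Ogfod1, beyond it, between -0.48 and 0.23. None of the 3 was called in any comparison; they were looked up after the metallothionein values were known. Mt3, a further metallothionein of the cluster known mainly from brain, held 4 counts with fatostatin, 15 with betulin, 14 with 25-HC, 25 with PF429424 and 31 with 1,10-Phen, against 15 with IL4 alone. It was called lower with fatostatin (log2 ratio -1.49, interval -3.94 to -0.24) and higher with 1,10-Phen (1.14, interval 0.32 to 2.24), and with betulin it was at 0.01. Mt4 is not analysed here.

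Mtf1, the zinc-sensing transcription factor itself (NCBI Gene 17764, chr4:124802549-124849800), was nearly level across the libraries. It stood at 5.26 FPKM with fatostatin, 5.45 with betulin, 6.79 with 25-HC, 5.30 with PF429424 and 6.17 with 1,10-Phen, against 5.27 FPKM with IL4 alone. The highest levels in scaled counts were those with 1,10-Phen (53.0 CPM) and 25-HC (50.6 CPM), which did not differ beyond counting error. The 25-HC level lay above the next one, PF429424 (42.4 CPM), by a log2 ratio of 0.26 (interval 0.13 to 0.39), and from PF429424 down to IL4 alone no neighbours in the order differed beyond counting error. Its log2 ratio was 0.47 with 1,10-Phen (interval 0.34 to 0.61), 0.40 with 25-HC (0.27 to 0.54) and 0.12 with betulin (-0.02 to 0.26). The message of Mtf1 was thus within 2-fold of the IL4 library also in the libraries where Mt1 and Mt2 were called. MTF1 is known to act through its location and metal binding, which RNA levels do not show.

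**Figure D3:**
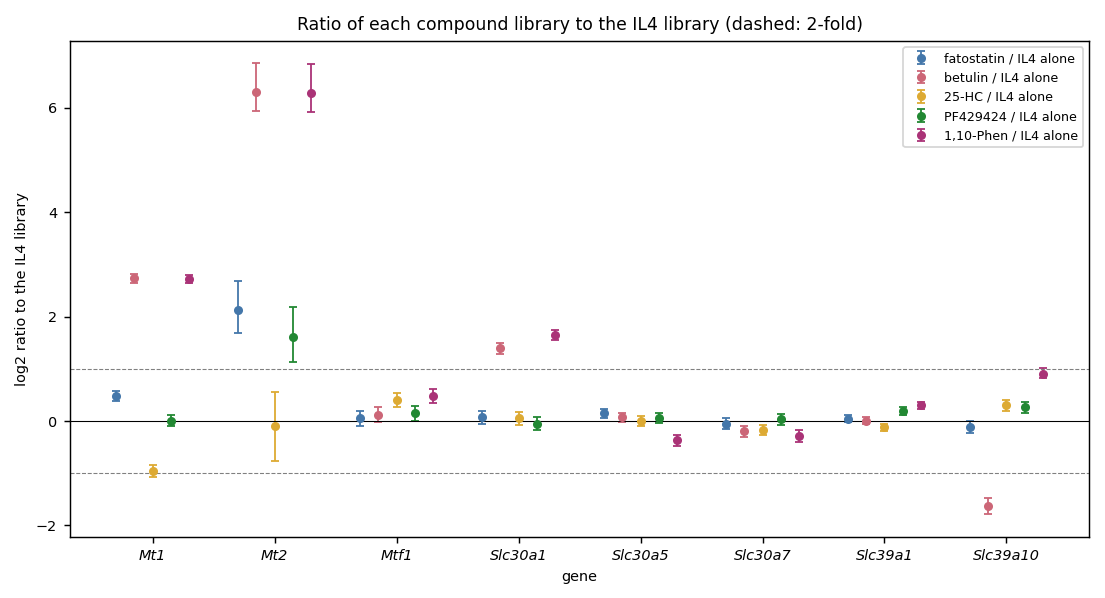
The 8 genes in each compound library, as log2 ratios to the IL4 library, with 95% counting intervals and dashed lines at 2-fold. With TMM scaling, betulin and 1,10-Phen overlap at Mt1 (2.73 and 2.72) and Mt2 (6.30 and 6.29). They lie on opposite sides of 0 at Slc39a10 (-1.62 and 0.91).

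Slc30a1 encodes ZnT1, the exporter that carries zinc out across the cell membrane (NCBI Gene 22782, chr1:191906697-191913248). Its level was 10.78 FPKM with fatostatin, 26.59 with betulin, 10.98 with 25-HC, 9.65 with PF429424 and 29.3 with 1,10-Phen, against 10.85 FPKM with IL4 alone. The libraries fell into a high pair, 1,10-Phen and betulin, and 4 low ones whose neighbours did not differ beyond counting error. Slc30a1 was 2.61-fold higher with betulin (interval 2.44 to 2.80; 2920 counts against 1124) and 3.13-fold higher with 1,10-Phen (2.93 to 3.36; 3066 counts). Unlike the metallothioneins, the betulin level was below the 1,10-Phen level, by 0.26 on the log2 scale (interval of the log2 ratio of betulin to 1,10-Phen -0.34 to -0.19). The size of this gap depends on TMM scaling. Scaled by library totals, the log2 ratio of Slc30a1 to the IL4 library was 1.32 with betulin and 1.41 with 1,10-Phen. In the fatostatin and PF429424 libraries, where Mt2 was called higher, Slc30a1 had log2 ratios of 0.07 (-0.05 to 0.19) and -0.05 (-0.17 to 0.08).

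Slc30a5 and Slc30a7 encode ZnT5 and ZnT7, which load zinc into the secretory pathway for enzymes such as alkaline phosphatase. Slc30a5 (NCBI Gene 69048, chr13:100802645-100833480) stood at 30.27 FPKM with fatostatin, 28.45 with betulin, 27.86 with 25-HC, 26.73 with PF429424 and 18.55 with 1,10-Phen, against 28.4 FPKM with IL4 alone. Only the 1,10-Phen library was apart from its neighbour in the order, with a log2 ratio to the IL4 library of -0.37 (interval -0.48 to -0.27). Slc30a7 (NCBI Gene 66500, chr3:115938973-116007414) stood at 17.2 FPKM with fatostatin, 19.37 with betulin, 20.76 with 25-HC, 19.98 with PF429424 and 16.42 with 1,10-Phen, against 21.59 FPKM with IL4 alone. Its count ratios to the IL4 library lay between -0.29 with 1,10-Phen and 0.04 with PF429424 on the log2 scale. Neither gene was called in any comparison, and Slc30a5 spanned 1.43-fold and Slc30a7 1.26-fold over the 6 libraries. Slc30a7 had fractional counts in every library and several listed transcripts, and its FPKM with fatostatin gave a lower ratio (-0.31 as log2(FPKM + 1)) than its counts (-0.05).

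Slc39a1 encodes ZIP1, a zinc importer of the cell membrane that many cell types express (NCBI Gene 30791, chr3:90248190-90253613). It had the highest level per length of the 5 transporters described here, with 74.61 FPKM with fatostatin, 72.51 with betulin, 67.37 with 25-HC, 78.03 with PF429424 and 78.75 with 1,10-Phen, against 75.3 FPKM with IL4 alone. The 6 libraries spanned 1.35-fold in scaled counts, and the log2 ratios lay between -0.12 with 25-HC and 0.31 with 1,10-Phen. With betulin the log2 ratio was 0.01 (interval -0.06 to 0.08).

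Slc39a10 encodes ZIP10, an importer known to serve survival and receptor signalling in immune cells (NCBI Gene 227059, chr1:46807544-46925776, minus strand). Its level was 11.9 FPKM with fatostatin, 4.13 with betulin, 15.99 with 25-HC, 14.54 with PF429424 and 21.25 with 1,10-Phen, against 13.32 FPKM with IL4 alone. Betulin gave the lowest and 1,10-Phen the highest level, while their metallothionein levels were not separable with TMM scaling. With betulin its fold was 0.325 of the IL4 library (interval 0.290 to 0.361; 437 counts against 1357), the 68th lowest of 11898 ratios. With 1,10-Phen it was 1.88-fold (interval 1.76 to 2.02), just under the 2-fold limit. Set directly against each other, the betulin library held 0.173 of the 1,10-Phen level, a log2 ratio of -2.53 (interval -2.69 to -2.39). The 25-HC and PF429424 levels did not differ beyond counting error, nor did the fatostatin level and that of IL4 alone.

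The exporter Slc30a1 and the importer Slc39a10 were set against each other because both were called with betulin, so their ratio restates those calls within each library. The ratio of Slc30a1 to Slc39a10 FPKM was 6.44 with betulin and 1.38 with 1,10-Phen, and 0.906 with fatostatin, 0.687 with 25-HC and 0.664 with PF429424, against 0.815 with IL4 alone. Between the betulin and 1,10-Phen libraries, none of the other 7 genes differed by 2-fold, and the largest of their log2 ratios was 0.44 for Slc30a5 (interval 0.34 to 0.54).

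**Figure D4:**
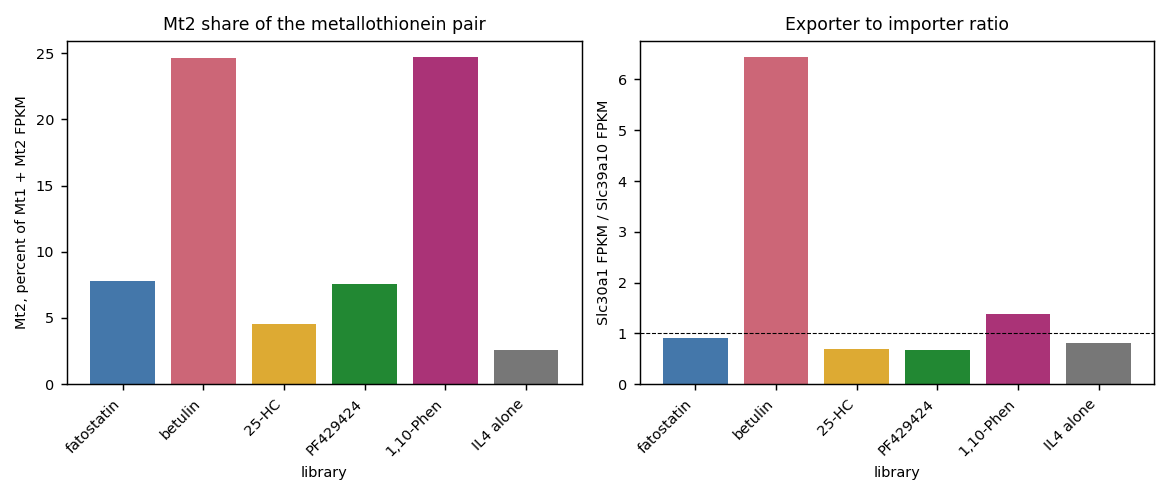
Left, Mt2 as a percentage of the summed FPKM of Mt1 and Mt2, and right, the ratio of Slc30a1 to Slc39a10 FPKM, in each of the 6 libraries. The Mt2 share is 24.6% with betulin and 24.7% with 1,10-Phen against 2.56% with IL4 alone, while the exporter to importer ratio is 6.44 with betulin and 1.38 with 1,10-Phen, against 0.815 with IL4 alone.

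Of the 24 genes of both families, 23 were in the tables and 17 passed the filter on low counts, 6 exporters and 11 importers, the 5 transporters described above included. With betulin 1 of the 17 was called higher, Slc30a1, and 1 lower, Slc39a10, as given above. With 1,10-Phen 1 was higher, again Slc30a1, and none lower. With fatostatin none was called, and with 25-HC and with PF429424 1 was lower. Over all genes 5.69% were called lower with 25-HC and 5.63% with PF429424, and 1.93% were called in either direction with fatostatin, so 1 or none of 17 is near the background. With 1,10-Phen 7.58% of all genes were called higher, so 1 of 17 is near the background there too. With betulin 1.91% of all genes were called higher and 2.29% lower. The lower gene in both was Slc39a12, an importer known mainly from brain, with 9 counts with 25-HC and 22 with PF429424, against 52 with IL4 alone. Its log2 ratio was -2.32 with 25-HC (interval -3.77 to -1.53) and -1.09 with PF429424 (-1.95 to -0.42). At 0.96 FPKM with IL4 alone, no lower call of Slc39a12 is possible on the log2(FPKM + 1) scale, so that scale cannot decide. The median log2 ratio of the 17 was 0.10 with fatostatin, 0.07 with betulin, 0.09 with 25-HC, 0.22 with PF429424 and 0.18 with 1,10-Phen. Scaled by library totals these medians were 0.04 with fatostatin, 0.00 with betulin, 0.06 with 25-HC, 0.08 with PF429424 and -0.06 with 1,10-Phen.

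Among transporters that were not called, Slc30a9, which is known to act on mitochondrial zinc, had its largest ratio with 1,10-Phen (log2 ratio 0.89). Slc39a7, which releases zinc from the endoplasmic reticulum and the Golgi, stood at 0.62 with 25-HC and 0.70 with PF429424. Slc39a8, an importer that also carries manganese and cadmium, stood at 0.59 with fatostatin and -0.62 with 1,10-Phen. None of these reached 2-fold, and the 2 importers were picked for their values. Of the 6 transporters in the tables that did not pass the filter, each held at most 14 counts in any library.

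**Figure D5:**
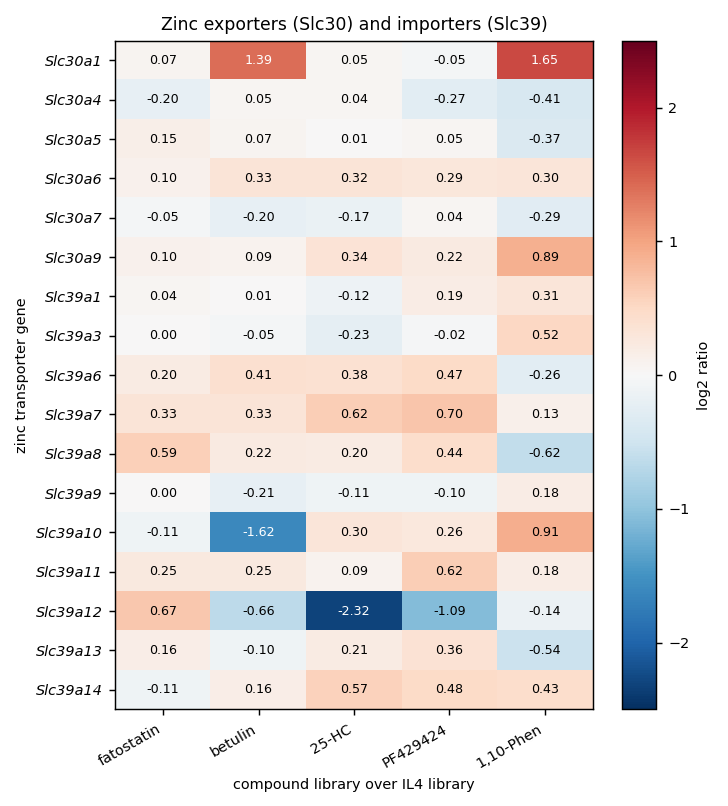
The 17 zinc transporters that passed the filter, as log2 ratios of the compound libraries (columns) to the IL4 library, exporters (Slc30) above importers (Slc39), with the value written in each cell. Slc30a1 stands out with betulin (1.39) and 1,10-Phen (1.65), Slc39a10 with betulin (-1.62) and Slc39a12 with 25-HC (-2.32).

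Genes reported elsewhere as targets of MTF1 did not move as a block with Mt1 and Mt2. Of 6 in the tables, none was called higher and 1 was called lower with betulin, with a median log2 ratio of 0.42. With 1,10-Phen 4 were called higher and 1 lower, with a median of 1.11. Over all genes compared, 1.91% were called higher and 2.29% lower with betulin, and 7.58% higher and 11.8% lower with 1,10-Phen. Gclc, of glutathione synthesis, was at -0.02 with betulin and 2.71 with 1,10-Phen. Ndrg1, also a hypoxia gene, was at 0.65 with betulin and 4.13 with 1,10-Phen, and Csrp1, which encodes a LIM domain protein, at 0.25 with betulin and -2.03 with 1,10-Phen. The iron exporter gene Slc40a1 was called lower with betulin (-1.22), 25-HC (-1.96) and PF429424 (-2.52), and higher, right at the limit, with 1,10-Phen (1.00). The growth factor gene Pgf was called lower with fatostatin (-1.27) and higher with 1,10-Phen (1.23), from at most 33 counts. With fatostatin all 6 were below 0, 1 of them called lower, where 1.06% of all genes were called lower.

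Copper handling genes, of which 8 passed the filter, were not called with betulin, fatostatin, 25-HC or PF429424. With 1,10-Phen Atp7a, a copper exporter, was higher (log2 ratio 1.44) and Slc31a1, the copper importer CTR1, was lower (0.499-fold), right at the limit. Over all genes compared, 19.4% were called in either direction with 1,10-Phen. The share was 4.19% with betulin, 1.93% with fatostatin, 8.97% with 25-HC and 8.12% with PF429424. The calls among these 8 genes are thus near the background. Among other zinc-related genes, S100a8 and S100a9, whose protein complex calprotectin binds zinc and is made mainly by neutrophils, were called lower with PF429424 (-1.58 and -1.65) and with 1,10-Phen (-2.77 and -2.55). With betulin S100a8 was called higher (1.13) and S100a9 was at 0.84. The zinc-permeable channel genes Mcoln1 and Trpm7 had log2 ratios between -0.17 and 0.48 in all 5 comparisons; both were named after their values were seen.

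Of the stress programmes examined, those of oxidative stress, hypoxia, heat shock and glucocorticoids are known to act on metallothionein genes. The oxidative stress and hypoxia lists differed between the 2 libraries with high Mt1 and Mt2. The median log2 ratio of the heat shock list was 0.5 in both. Of 6 genes of the NRF2 oxidative stress response, 6 were called higher with 1,10-Phen and none with betulin. The haem oxygenase gene Hmox1 was at 3.43 with 1,10-Phen and 0.67 with betulin. Nqo1 of this list was called lower with fatostatin (-2.18), 25-HC (-1.47) and PF429424 (-1.14). Of 6 hypoxia genes, 5 were called higher with 1,10-Phen and none with betulin, and Egln3, a prolyl hydroxylase, was at 8.93 with 1,10-Phen and 0.61 with betulin. Of 5 ATF4 genes, 3 were called higher with betulin, 4 with 25-HC, 4 with PF429424 and 5 with 1,10-Phen. Of 4 heat shock genes 2 were called higher with 25-HC and 2 with 1,10-Phen, and of 4 glucocorticoid-responsive genes none was called higher in any comparison. Of the latter, Fkbp5 was called lower with 1,10-Phen (-1.42). Zbtb16, at 0.19 FPKM with IL4 alone, was called lower with 25-HC (-1.07) and PF429424 (-2.40). Over all genes compared, 7.58% were called higher with 1,10-Phen and 1.91% with betulin. The share was 3.28% with 25-HC, 2.49% with PF429424 and 0.874% with fatostatin. Called lower were 11.8% with 1,10-Phen, 5.69% with 25-HC, 5.63% with PF429424 and 1.06% with fatostatin. The part of these programmes in the metallothionein values was not tested.

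Markers of other cells also differed in level between the libraries. The 8 neutrophil markers, none of them at 0, summed to 289 CPM with fatostatin, 636 with betulin, 687 with 25-HC, 418 with PF429424 and 854 with 1,10-Phen, against 664 CPM with IL4 alone. Mmp8 alone held 832 CPM with 1,10-Phen and 96.7 CPM with fatostatin, against 527 CPM with IL4 alone. Of the 8, 6 were called lower with 1,10-Phen and 4 with PF429424, where 11.8% and 5.63% of all genes were called lower. The 6 stromal markers summed to 34.2 CPM with betulin and 97.8 CPM with 1,10-Phen, and to between 40.1 and 76.8 CPM in the other compound libraries, against 98.9 CPM with IL4 alone. Col1a1 and Col1a2 held 47.8 and 48.8 CPM of that last sum, and both were called lower with betulin (0.328-fold and 0.345-fold) and with PF429424 (0.352-fold and 0.444-fold). Col3a1 and Dcn held at most 8 counts in any library, and Lum was at 0 in 3 libraries. Their part in the values of the 8 genes was not tested.

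The genes whose pattern was most like that of 4 of the members were found by Pearson's r of log2 CPM over the 6 libraries, among 9967 genes that reached 5 CPM in at least 1 library and had a regular symbol. Mt1 and Mt2 were each other's nearest gene (r = 0.978), and Slc30a1 was the fourth nearest to both (r = 0.945 with Mt1 and 0.948 with Mt2). Also near Mt1 were Ly96 (0.951), Pacs2 (0.946) and Zfp560 (0.931), and near Mt2 were Iqcb1 (0.965), Lamtor3 (0.961) and Ppfibp2 (0.931). Nearest to Slc30a1 were Ppfibp2 (0.975), Nfyc (0.968), Fancc (0.959), Mt2 (0.948) and Zdhhc24 (0.948). Likeness in shape did not mean a change of like size, since Ppfibp2 had log2 ratios of 0.77 with betulin and 1.12 with 1,10-Phen and Pacs2 had 0.12 with betulin and 0.06 with 1,10-Phen. Nearest to Slc39a10 were Orc3 (0.988), Zfp846 (0.974), Rab6b (0.970), Nedd9 (0.965) and Strn (0.964). Mtf1 ranked 3607th in likeness to Mt1 (0.166) and 3016th in likeness to Mt2 (0.278). With 6 libraries that all genes share, r is a description only.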

How the data were processed

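Per the submitters' processing notes, HISAT2, Bowtie2, RSEM 1.2.12 and DESeq2 were used, with no role given. Strand settings and doses are not given in the sources used here. Per the file headers, the deposited tables hold a read count per gene, in values that read as an expected count not scaled between libraries by the authors, and an FPKM value scaled by the authors to transcript length and library size. Between 30.5% and 32.0% of the counts of a library are not whole numbers.

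Counts were rounded and scaled with TMM over the 6 libraries (edgeR 4.0.16, R 4.3.3). Log2 ratios to the IL4 library used a prior count of 2, and the 11898 of 16775 genes that reached 1 CPM in any library were compared; printed CPM uses the TMM-scaled total. With 1 library per treatment no test was run; the ratio code was tested on simulated data. Intervals (95%) cover counting error only, and 3 counts correspond to between 0.137 and 0.161 CPM. The members and lists were chosen with earlier results of these data known. Named genes were the 8 members, list members called or with the largest ratio, and the 5 genes most like Mt1, Mt2, Slc30a1 and Slc39a10. Outside this rule, Slc39a7, Slc39a8, Mcoln1, Trpm7, Nup93, Bbs2 and Ogfod1 were named after their values were seen. Positions and promoters come from RefSeq (GRCm38.p6), which held 99.3% of the gene IDs; the coordinates in the tables are rounded. Tried in place of these were size factors of DESeq2 1.42.0, scaling by library totals, leaving out the filter, a filter at 5 CPM, a prior count of 0.5 or 10, log2(FPKM + 1), and ratios to the median of the 6 libraries. Python 3.11.15, numpy 2.4.6, pandas 2.3.3, SciPy 1.17.1 and matplotlib 3.10.9 were used for the other steps.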

Additional observations from a re-analysis of the deposited data

How the results depend on the processing

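With DESeq2 size factors, no filter or a prior count of 0.5, all counts of called members and called transporters were unchanged and all 40 member ratios stayed within their counting intervals. With the median of the 6 libraries as reference, 0 members were higher with fatostatin, 0 were higher with PF429424 and 2 were lower with 25-HC (Mt1 at -1.20 and Mt2 at -1.95). Mt2 with PF429424 then reversed to -0.26 and with fatostatin stood at 0.26, since the Mt2 median lies between those libraries by construction, while betulin (4.45) and 1,10-Phen (4.43) stayed far above. Under that reference 1 transporter was higher with fatostatin, Slc39a12 (1.06), and 0 were lower with PF429424. The lower call of Slc39a12 became 0 transporters lower with 25-HC at a CPM of at least 5, which leaves the gene out. The same happened with log2(FPKM + 1), where its 0.96 FPKM with IL4 alone allows no lower call. For PF429424 the call became 0 lower in these 2 settings and with a prior count of 10. Library totals moved the median of all genes to -0.254 with 1,10-Phen and -0.113 with PF429424. Under library totals no member call changed, and Slc30a1 stood at 1.41 and Slc39a10 at 0.67 with 1,10-Phen. Mt1 then stood at 2.66 with betulin and 2.48 with 1,10-Phen, and Mt2 at 6.24 with betulin and 6.05 with 1,10-Phen. Over all alternatives Mt1 ranged from 2.49 to 2.73 with betulin and from 2.47 to 2.73 with 1,10-Phen, and Slc39a10 with betulin from -1.75 to -1.48. Among the 8 members depth limits Mt2 most, with 42 counts with IL4 alone. The calls of Mt3, Pgf, Slc39a12, Zbtb16, Egln3 and Nqo1 (with fatostatin) rest on fewer counts than that in 1 or both libraries. No paired analysis was possible because each treatment has 1 library.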
